A study of Mus musculus with 14 samples.

Results

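The autophagy machinery genes were followed in the RPE transcriptomes of mice lacking Clic4 in the RPE. The 36 genes were taken by symbol from a list of initiation, conjugation, LC3 family and cargo receptor genes, without regard to their levels, and each was matched to 1 gene of the 42687 in the count table. RPE cells of both eyes were pooled for each of 14 male mice at 3 months of age on a C57BL/6J background, and poly(A) RNA was sequenced. The libraries fall into 3 sets with no library in common, and every set includes KO mice, whose genotype is Best1-Cre+/-;Clic4f/f. One set, called the WT set, holds 3 WT mice, with neither Cre nor floxed alleles, and 3 KO mice. The Ctrl set has 2 Ctrl mice (Clic4f/f, floxed alleles without Cre) and 2 KO mice, and the CreCtrl set has 2 CreCtrl mice (Best1-Cre+/-, Cre without floxed alleles) and 2 KO mice. Best1-Cre is driven by an RPE promoter that turns on after birth, so Clic4 was lost late, in RPE cells. The labels name no set, and each KO library was placed by the style of its title and its sample code. The paper states that 3 KO mice were compared with WT, 2 with Ctrl and 2 with CreCtrl, without naming the libraries. Because each control genotype occurs in a set of its own, control genotype and set cannot be told apart.

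Autophagy encloses cytoplasm in a double membrane, the autophagosome, and delivers it to the lysosome. The ULK1 kinase complex starts the process, and the class III PI3-kinase then makes the lipid PI3P at the growing membrane. PI3P is read by WIPI proteins, while ATG2, ATG9 and VMP1 supply and move lipid. A pair of ubiquitin-like conjugation systems, built from ATG12-ATG5-ATG16L1 and from ATG7 and ATG3, attach LC3 and GABARAP proteins to that membrane, where they bind cargo receptors such as p62. In the RPE, autophagy clears damaged organelles, and part of the machinery is also used to degrade the photoreceptor outer segments that the cell ingests each day.

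Deposited counts of a library sum to between 9828293 and 32384166. The targeted gene Clic4 was lower in every KO library than in every control library of its set. Its log2 fold change was -3.32 against WT, -1.61 against Ctrl (adjusted p = 0.333 by edgeR, not called) and -2.16 against CreCtrl. Scaled within the set, Clic4 was at 240.4 to 248.5 CPM in WT, 59.4 to 69.2 in Ctrl and 86.5 to 108.5 in CreCtrl. The KO libraries of these sets were at 17.9 to 32.6, 9.40 to 32.7 and 13.2 to 30.4 CPM. The libraries also differed in other markers, all in CPM scaled over the 14 libraries. The summed level of 10 RPE markers was 15395 to 22662 in WT against 72727 to 81378 in KO libraries, 46137 to 46185 against 70843 to 73100 in the Ctrl set, and 49449 to 57057 against 70717 to 76637 in the CreCtrl set. That of 10 fibroblast markers was 8574 to 8874 against 309.5 to 867, 1329 to 2511 against 129 to 353, and 1491 to 3098 against 259 to 364. That of 12 immediate-early genes was 13570.5 to 16117 against 999.9 to 2323, 7010.2 to 10529 against 460.2 to 1936, and 4971 to 5345 against 343 to 752. Of these lists, edgeR called 8, 10 and 12 markers in the WT set (RPE higher, fibroblast and immediate-early lower), 0 in the Ctrl set, and 1, 9 and 12 in the CreCtrl set. Of 11 myeloid, 10 endothelial and 10 rod markers, 10, 8 and 0 were called lower in the WT set and 9, 7 and 9 in the CreCtrl set, again with 0 in the Ctrl set. In the WT set 1 myeloid and 1 rod marker were called higher. Median log2 fold changes against WT, Ctrl and CreCtrl were -3.69, 0.24 and -2.79 for myeloid markers. They were -1.86, -2.15 and -2.53 for endothelial markers, and 0.45, 0.69 and -3.04 for rod markers. None of the markers of these 6 lists was at 0 in all libraries of a group. In bulk RNA, fewer cells of a type and less RNA per cell cannot be told apart. The part of these marker levels in the results for the autophagy genes was not tested.

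**Figure D1:**
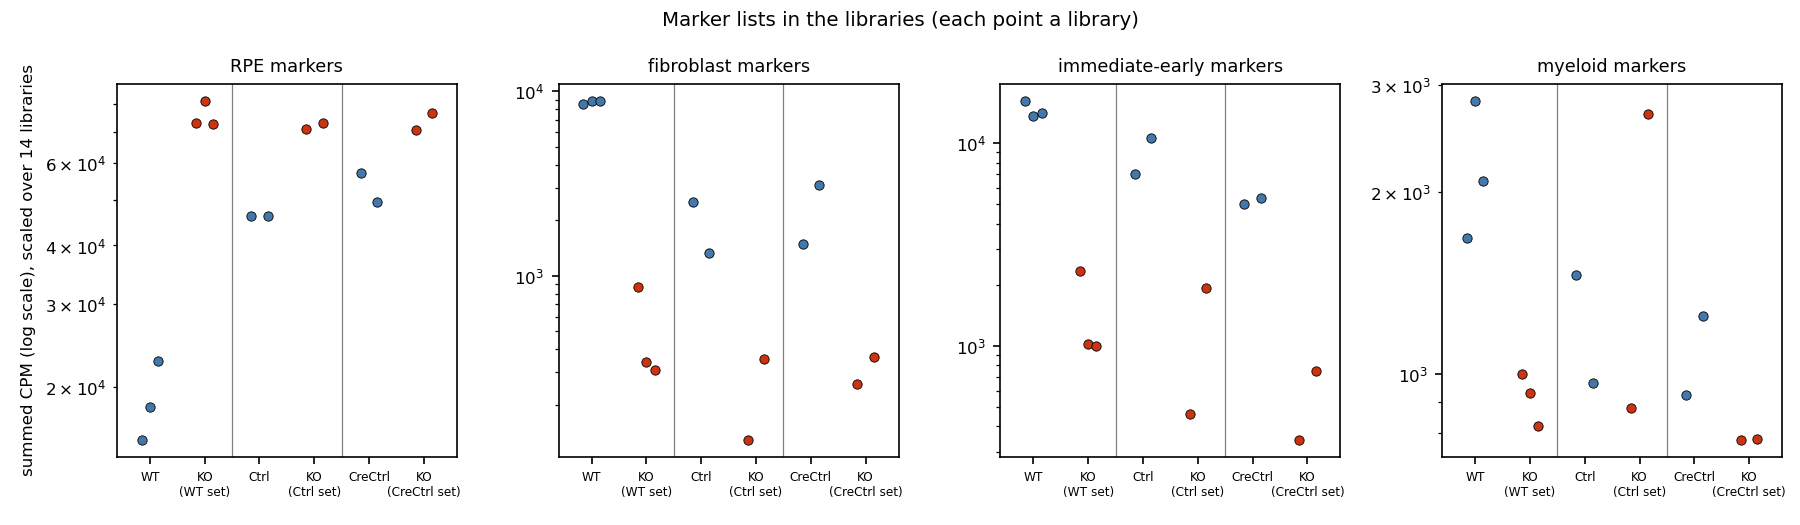
Summed CPM of the RPE, fibroblast, immediate-early and myeloid markers (log scale, scaled over 14 libraries), 1 point a library, controls in blue and KO in red. In all 3 sets the KO libraries are above their controls in RPE markers and below them in fibroblast and immediate-early markers, and the WT libraries have the lowest RPE and the highest fibroblast level, 8574 to 8874 CPM.

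All 36 genes were expressed in every library, with at least 42 counts (Atg10), and all passed the filter on low counts in every comparison. Levels between genes were compared as RPKM, CPM scaled over the 14 libraries and divided by the kilobases of exon. The length is that of all annotated exons of a gene merged, and the order depends on it. Without that division Sqstm1 was above Map1lc3a, with a mean of 507 against 214 CPM in WT (scaled within the set). The LC3 homologue Map1lc3a was the highest of the 36, with a median of 160.0 RPKM over the 7 control libraries (108 to 200.2) and 230.2 RPKM over the 7 KO libraries (189 to 296). Gabarap followed with 131 RPKM in controls (112.3 to 179) and 188 in KO (164 to 213), and Sqstm1, which encodes the cargo receptor p62, with 130.3 in controls (97.2 to 173) and 137 in KO (118 to 163). These 3 neighbours overlap in range in the controls, so their order is not fixed by these data. Pink1, the kinase that marks damaged mitochondria, came next at 72.3 RPKM in controls (50.8 to 87.3), then Gabarapl1 at 62.2, Wipi1 at 34.2, Optn at 32.3 and Nbr1 at 22.2. The first 8 places were held by the same genes in controls and KO. At the other end were the membrane protein gene Atg9a (2.62 RPKM in controls, 1.94 to 3.92), Rb1cc1, the scaffold FIP200 of the ULK1 complex (3.05, 2.67 to 3.65), and Atg16l1 (3.26, 2.45 to 4.65), whose ranges also overlap. The largest move in rank was that of Gabarapl2, from 16th in controls to 9th in KO. Atg12 moved from 18th to 13th and Ulk1 from 11th to 17th.

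**Figure D2:**
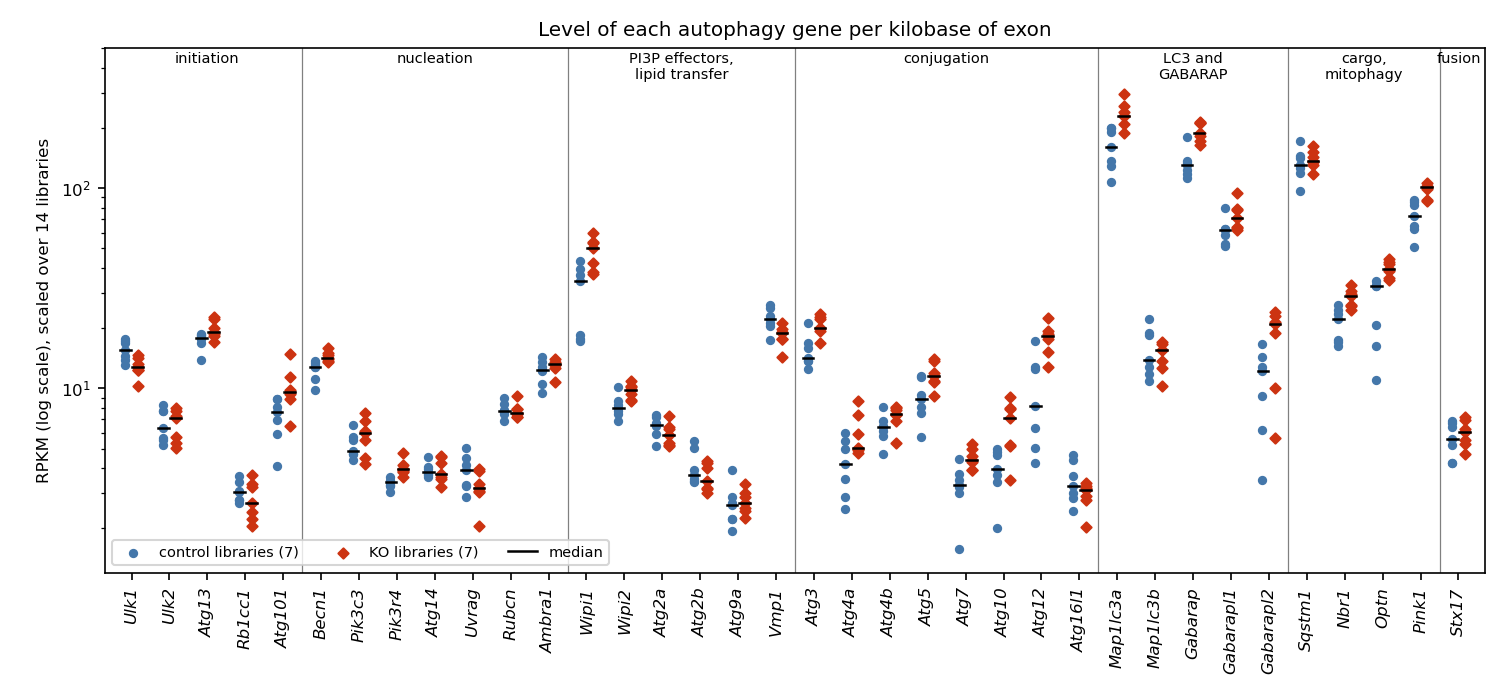
RPKM (log scale) of each of the 36 genes, ordered by role, in the 7 control libraries (blue circles) and the 7 KO libraries (red diamonds), with the median of each as a black bar. Levels span from 2.62 RPKM (Atg9a) to 160.0 RPKM (Map1lc3a) in the median of the controls, and KO points lie mostly above control points in the conjugation, LC3 and cargo genes but not in the initiation genes.

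Within each set, KO and control libraries were compared by the quasi-likelihood test of edgeR across all genes, and a gene was called at an adjusted p (Benjamini-Hochberg) under 0.05. In the WT set 7 of the 36 genes were higher in KO (19.4%) and 4 lower (11.1%), beside 16.1% and 19.0% of the 15428 genes tested. The 7 were the conjugation genes Atg12 and Atg3, the LC3 family genes Gabarap and Gabarapl2, the cargo receptor genes Optn and Nbr1, and Wipi1. The 4 were the initiation genes Ulk1 and Rb1cc1, with Vmp1 and Map1lc3b. In the CreCtrl set 2 were higher, Atg12 and Map1lc3a (5.56%, beside 3.60% of 15963 genes), and 0 lower (beside 12.2%). At an unadjusted p under 0.05, 14 of the 36 were higher in the CreCtrl set (beside 2599 of 15963 genes) and 0 lower (beside 22.3%). DESeq2 called 5 higher (beside 1655 of 15963 genes) and 0 lower (beside 15.3%). The edgeR count of 2 was not stable: it changed whichever library of the set was left out. The number called higher over all genes rose in some of those fits and fell in others. Each of those fits leaves 1 library in a group. In the WT set the 4 lower genes became 2 without WT replicate 1 or KO replicate 1, beside 2389 and 2565 lower over all genes. They became 1 without KO replicate 2 or 3, beside 2250 and 2336.

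No autophagy gene was called in the Ctrl set by edgeR, where 0% of the 15287 genes tested were called higher and 0% lower. At an unadjusted p under 0.05 the count was 0 higher and 0 lower (beside 0.713% and 11.4% of all genes), and DESeq2 also called 0 and 0 (beside 0.111% and 7.16%). With 2 libraries against 2, a missed threshold does not show that the levels were alike.

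With all 7 KO and 7 control libraries and the set as a covariate, 15 of the 36 genes were higher in KO (41.7%, beside 20.1% of 16181 genes) and 1, Ulk1, was lower (2.78%, beside 18.6%). Conjugation gave 6 of its 8 genes (Atg3, Atg4a, Atg5, Atg7, Atg10 and Atg12), the LC3 and GABARAP family 3 of 5 (Map1lc3a, Gabarap and Gabarapl2) and the cargo receptor and mitophagy genes 3 of 4 (Nbr1, Optn and Pink1). Of the other groups, PI3P effectors and lipid transfer gave 2 of 6 (Wipi1 and Wipi2), nucleation 1 of 7 (Pik3r4), initiation 0 of 5 and fusion 0 of 1. Whichever library was left out, 9 of the 15 were called (Wipi1, Atg3, Atg12, Map1lc3a, Gabarap, Gabarapl2, Nbr1, Optn and Pink1). How many of all 3252 genes called higher also stay called in every such fit was not counted. Of the 14 such fits, Atg7 was called in 8, Atg10 and Ulk1 in 6, Atg4a and Pik3r4 in 5, Atg5 in 3 and Wipi2 in 2. The count of 15 became 9 without KO replicate 1 of the WT set, CreCtrl replicate 2 or KO replicate 2 of the CreCtrl set. Over all genes 2846, 2849 and 2935 were called higher in those fits, in place of 3252. The 36 genes had a median log2 fold change of 0.05 against WT, 0.04 against Ctrl, 0.33 against CreCtrl and 0.20 over the 7 and 7, where that of all genes tested was -0.08, 0.01, -0.02 and -0.01.

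The number called in each direction depended on the scaling. Scaled by library size alone, the counts were 3 higher and 8 lower in place of 7 and 4 in the WT set, beside 1716 and 3942 of 15428 genes. In the CreCtrl set they were 1 and 0 in place of 2 and 0, beside 219 and 2757 of 15963 genes. Over the 7 and 7 they were 4 and 9 in place of 15 and 1, beside 1531 and 4598 of 16181 genes. The genes still called higher were then Wipi1, Atg12 and Optn in the WT set, Atg12 in the CreCtrl set, and Wipi1, Atg12, Gabarap and Gabarapl2 over the 7 and 7. That scaling moved the median over all genes tested to -0.32, -0.11 and -0.24 (log2) in the WT, Ctrl and CreCtrl sets and to -0.27 over the 7 and 7. Relative to that median, the autophagy genes had a median 0.13 higher against WT, 0.03 against Ctrl, 0.35 against CreCtrl and 0.21 over the 7 and 7, on the log2 scale, under both scalings, and 23, 20, 30 and 25 of the 36 genes were above it.

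**Figure D3:**
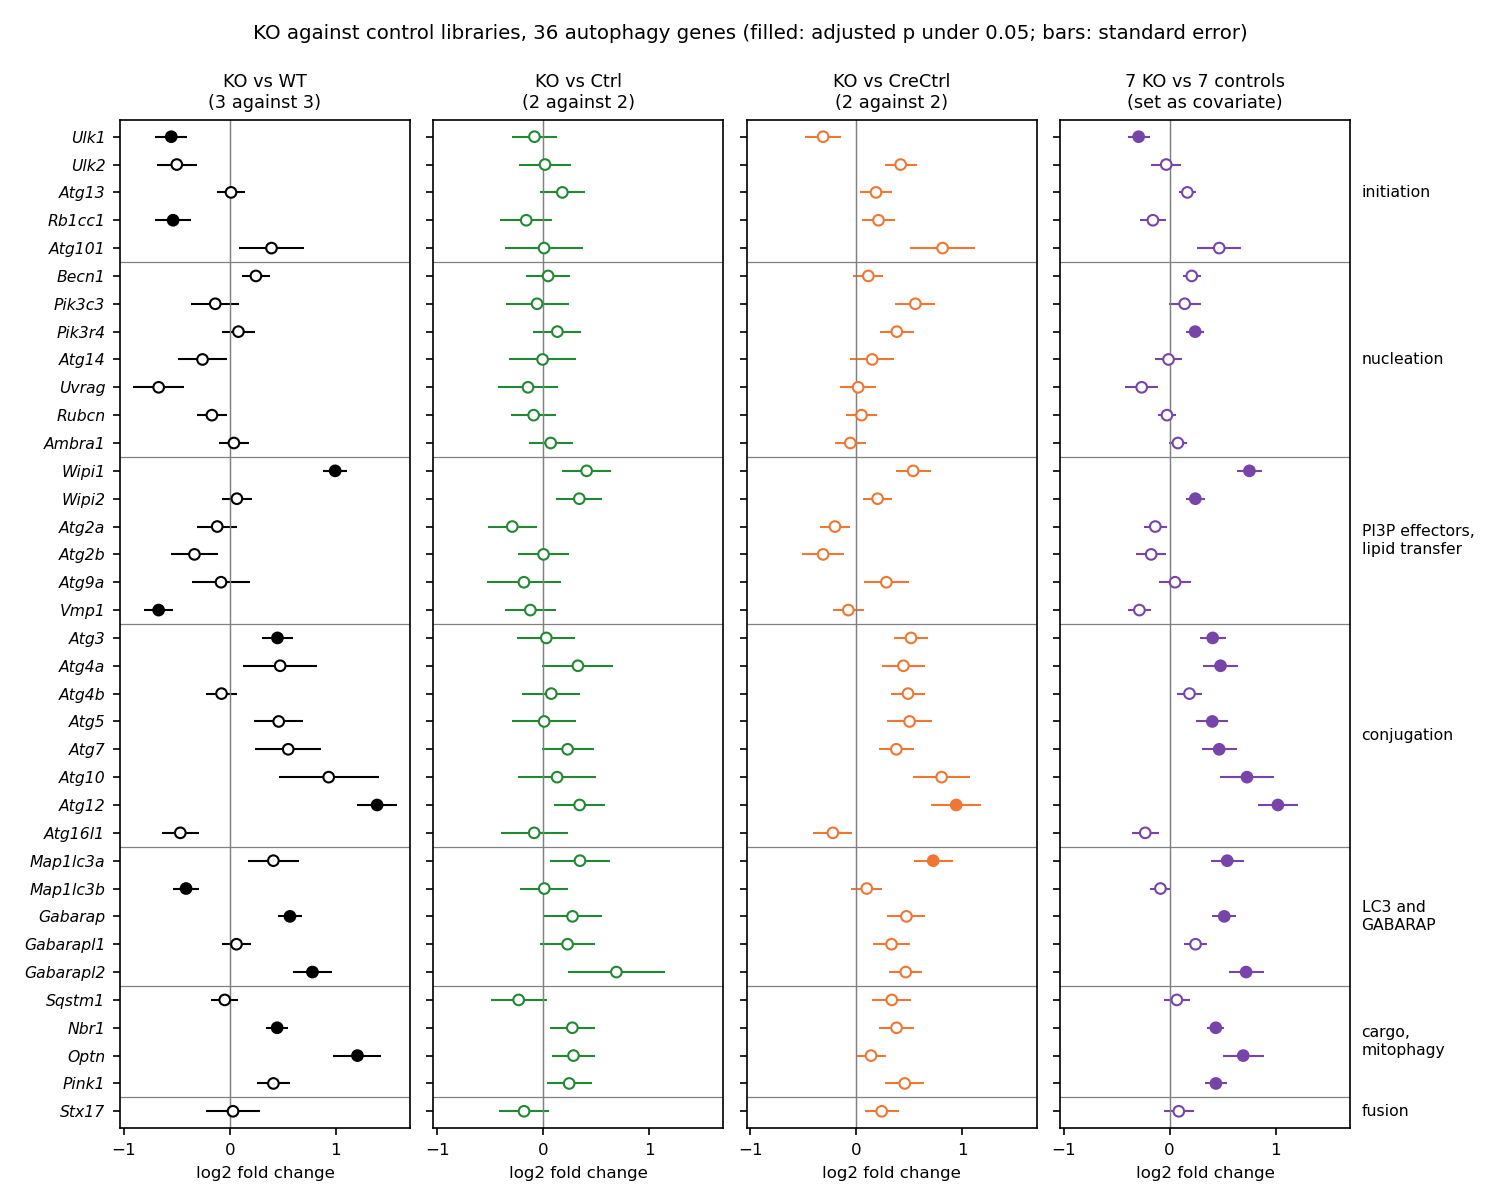
Log2 fold change of KO against control libraries for the 36 genes, with the standard error as bars and filled points for an adjusted p under 0.05, in the 3 sets and over 7 KO and 7 control libraries. Atg12 and Wipi1 are right of 0 in all 4 panels, the Ctrl set has no filled point, and Ulk1, at -0.55, -0.08, -0.31 and -0.29, is left of 0 in all 4.

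Libraries were also set side by side without a test. In all 3 sets, every KO library was above every control library of its set for 6 genes, Wipi1, Atg7, Atg12, Nbr1, Optn and Pink1 (16.7%, beside 8.33% of the 14423 genes tested in all 3 sets), and below for 0 (beside 11.3%). Within a set, KO was above without overlap for 10 of the 36 genes in the WT set (beside 23.7%), 11 in the Ctrl set (beside 18.2%) and 25 in the CreCtrl set (beside 34.8%), and below for 7 (beside 28.4%), 2 (beside 22.8%) and 3 (beside 36.9%). The log2 fold change was above 0 in all 3 sets for 19 genes (52.8%, beside 28.8%) and below 0 for 4, Ulk1, Atg2a, Vmp1 and Atg16l1 (11.1%, beside 27.8%).

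**Figure D4:**
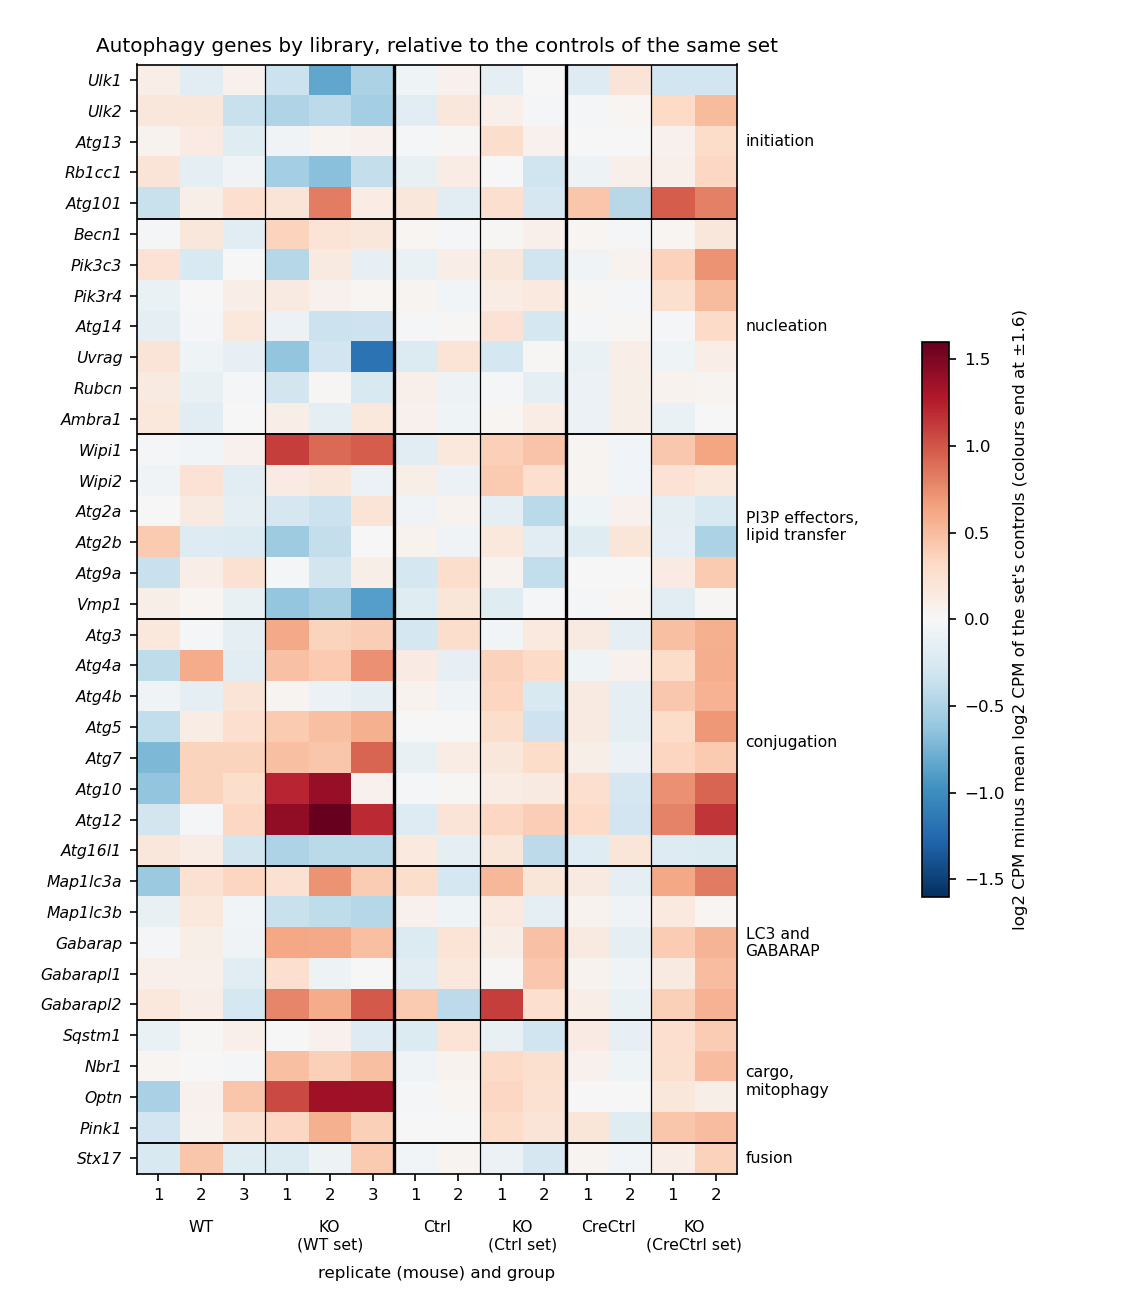
Log2 CPM of each gene in each library minus the mean log2 CPM of the controls of its set (red higher, blue lower, colours ending at ±1.6), with thick lines between sets and thin lines between groups. The darkest red cells are among the KO libraries of the WT set, for Atg12, Optn and Atg10. Wipi1 is also red there, and about as dark are Atg12 in KO replicate 2 of the CreCtrl set and Gabarapl2 in KO replicate 1 of the Ctrl set. The rows of Atg12, Optn and Wipi1 are paler in the other sets than in the WT set. Replicates of 1 group differ visibly for Gabarapl2 in the Ctrl set and Atg10 in the WT set.

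Of the 5 initiation genes, 2 were lower and 0 higher in the WT set. Ulk1 encodes the kinase that starts autophagosome formation (chromosome 5, 110784488 to 110810097 of GRCm38, minus strand). It had 123, 102 and 120.0 CPM (scaled within the set, as are all CPM of single genes here) in WT and 90.1, 64.4 and 80.4 in KO libraries 1 to 3 of the WT set. In the Ctrl set it had 87.5 and 96.3 CPM in Ctrl and 82.0 and 91.7 in KO, and in the CreCtrl set 85.2 and 113 in CreCtrl and 79.6 and 79.5 in KO. KO was below the controls without overlap in the WT and CreCtrl sets, and the groups overlapped in the Ctrl set. On the log2 scale KO differed by -0.55 from WT (SE 0.15, adjusted p = 0.0222 by edgeR), -0.08 from Ctrl (SE 0.21, adjusted p = 0.960 by edgeR) and -0.31 from CreCtrl (SE 0.17, adjusted p = 0.222 by edgeR). Over the 7 and 7 it was -0.29 (SE 0.10, adjusted p = 0.0373 by edgeR). The call against WT was lost without WT replicate 1 or 3 or KO replicate 2 or 3, with adjusted p up to 0.156 and a log2 fold change of -0.35 at the smallest.

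Rb1cc1, which encodes the FIP200 scaffold that holds the ULK1 complex together (chromosome 1, 6206197 to 6276648, plus strand), had 53.6, 42.4 and 44.7 CPM in WT and 32.1, 29.3 and 35.7 in KO libraries, without overlap. The fall in the WT set was -0.53 on the log2 scale (SE 0.17, adjusted p = 0.0364 by edgeR), and the call held in 1 of the 6 fits with a library left out, without WT replicate 2 (adjusted p 0.0415 to 0.183 over the 6). It was also lost with every gene of at least 1 count kept, with the replicate number as a block and with all 14 libraries in 1 fit. In the other sets it was 43.4 and 51.4 CPM in Ctrl against 46.9 and 37.9 in KO, and 40.7 and 45.7 in CreCtrl against 45.5 and 54.3 in KO, and those groups overlapped. An antisense gene overlaps 558 bases of its exons, and whether the counting used the strand is not given in the sources used here. Ulk2, the paralogue of Ulk1, was not called in any comparison, and its log2 fold change was -0.50 in the WT set (SE 0.19, adjusted p = 0.0711 by edgeR) and 0.42 in the CreCtrl set (SE 0.15, adjusted p = 0.0916 by edgeR). The log2 fold changes of Atg13 and Atg101, the adaptor subunits, were 0.01 and 0.39 in the WT set and 0.19 and 0.81 in the CreCtrl set, and neither gene was called.

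The nucleation genes encode the class III PI3-kinase PIK3C3, its subunits PIK3R4 and Beclin 1, and regulators that direct it to autophagy (ATG14, AMBRA1) or to endosomes (UVRAG, Rubicon). In no single set was any of the 7 called. Pik3r4 was called over the 7 and 7, with a log2 fold change of 0.24 (SE 0.09, adjusted p = 0.0416 by edgeR). Its levels were 31.5 to 36.5 CPM in WT and 34.8 to 37.6 in KO, 32.04 to 33.9 in Ctrl and 35.7 to 36.6 in KO, and 31.95 to 32.8 in CreCtrl and 38.6 to 45.8 in KO. Scaled by library size alone its log2 fold change was -0.02, so the direction given holds for the scaled libraries only. Of the others, the largest difference was that of Uvrag in the WT set, where the 3 KO libraries (18.7 to 34.4 CPM) were below the 3 WT libraries (38.8 to 48.8 CPM) with a log2 fold change of -0.67 (SE 0.24) that was not called (adjusted p = 0.0607 by edgeR). Pik3c3 reached 0.56 in the CreCtrl set (SE 0.19, adjusted p = 0.0783 by edgeR) and -0.14 in the WT set. The log2 fold changes of Becn1, Atg14, Rubcn and Ambra1 lay between -0.26 and 0.25 in every set. Becn1 shares 3104 bases of its exons with Cntd1 on the other strand.

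Wipi1 encodes a protein that binds PI3P on the forming membrane (chromosome 11, 109573331 to 109611967, minus strand). It had 84.1, 82.5 and 89.3 CPM in WT and 183, 159 and 167 in KO libraries of the WT set. In the Ctrl set the values were 146 and 184 CPM in Ctrl and 213 and 226 in KO, and in the CreCtrl set 174 and 164 in CreCtrl and 228 and 262 in KO. Every KO library was above every control library of its set. KO exceeded WT 1.99-fold (log2 fold change 0.99, SE 0.11, adjusted p = 0.000286 by edgeR), Ctrl 1.33-fold (0.41, SE 0.23, adjusted p = 0.635 by edgeR) and CreCtrl 1.45-fold (0.54, SE 0.16, adjusted p = 0.0637 by edgeR). It was called in the WT set and over the 7 and 7 under each of the 13 and 20 alternative settings, library size alone among them.

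The WT libraries were the lowest controls for Wipi1. On the scale over all 14 libraries, Wipi1 was at 17.3 to 18.4 RPKM in WT, 34.2 to 43.5 in Ctrl and 36.9 to 39.5 in CreCtrl, while the KO libraries were at 37.3 to 42.2, 50.3 to 53.1 and 53.7 to 59.6 RPKM in the same order. The KO libraries of the WT set therefore lay in the range of the Ctrl libraries. The KO effect itself differed between the WT and Ctrl sets by 0.72 on the log2 scale (SE 0.19, adjusted p = 0.0490 by edgeR's interaction contrast), and this was the 1 gene of the 36 for which that difference was called (2.78%, beside 5.15% of 17662 genes). That call was lost in every alternative but the one without Ctrl replicate 1, with adjusted p up to 0.384. Between the WT and CreCtrl sets the difference for Wipi1 was 0.57 (SE 0.19, adjusted p = 0.171 by edgeR).

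Vmp1 encodes a scramblase of the endoplasmic reticulum needed for autophagosome formation (chromosome 11, 86583865 to 86683836, minus strand). It fell from 109, 105 and 93.9 CPM in WT to 66.8, 70.7 and 55.5 in KO libraries, with no overlap. This was -0.67 on the log2 scale (SE 0.14, adjusted p = 0.00510 by edgeR), the largest decrease called among the 36 genes in the WT set, and the call held under all 13 alternatives. In the other sets the groups overlapped, with 65.2 and 85.4 CPM in Ctrl against 65.2 and 73.4 in KO, and 78.7 and 82.2 in CreCtrl against 71.1 and 81.4 in KO. The precursor of Mir21a lies in an exon of Vmp1 on the same strand (92 bases).

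Wipi2 was called higher over the 7 and 7 (log2 fold change 0.24, SE 0.09, adjusted p = 0.0483 by edgeR), and its value was -0.02 when scaled by library size alone. The log2 fold changes of the lipid transfer genes Atg2a and Atg2b were -0.12 and -0.33 against WT, -0.29 and 0.00 against Ctrl and -0.20 and -0.31 against CreCtrl, none of them called. Those of Atg9a, which encodes the membrane protein of the seed vesicles, were -0.08, -0.18 and 0.28, also not called, and 1832 bases of its exons are shared with a gene on the same strand.

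The conjugation gene Atg12 had the largest log2 fold change of the 36 genes in the WT set, the CreCtrl set and over the 7 and 7. It encodes the ubiquitin-like protein that is joined to ATG5. Its levels were 35.04, 42.1 and 54.1 CPM in WT and 114.9, 131 and 98.2 in KO libraries of the WT set. In the Ctrl set it had 95.1 and 127 CPM in Ctrl and 138 and 144 in KO, and in the CreCtrl set 96.6 and 63.3 in CreCtrl and 135 and 172 in KO. KO was above the controls without overlap in all 3 sets. The fold was 2.62 against WT (log2 fold change 1.39, SE 0.19, adjusted p = 0.000645 by edgeR), 1.27 against Ctrl (0.35, SE 0.24, adjusted p = 0.746 by edgeR) and 1.92 against CreCtrl (0.94, SE 0.23, adjusted p = 0.0399 by edgeR).

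As for Wipi1, the level of Atg12 in WT libraries was below that of the other controls. On the common scale it was 4.23 to 6.37 RPKM in WT, 12.7 to 17.2 in Ctrl and 8.15 to 12.5 in CreCtrl, and 12.7 to 17.6, 18.6 to 19.4 and 18.2 to 22.4 in the KO libraries of these sets. The KO effect differed between the WT and Ctrl sets by 1.19 on the log2 scale, with an adjusted p of 0.0503 (SE 0.32, edgeR's interaction contrast) that missed the threshold. The calls against WT and over the 7 and 7 held under every alternative. The call against CreCtrl was lost without CreCtrl replicate 2 or without KO replicate 2 of that set, with adjusted p up to 0.135 by edgeR.

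The enzymes of the conjugation systems were called mainly where all 14 libraries entered. Atg3, the E2-like enzyme for LC3 (chromosome 16, 45158785 to 45188538, plus strand), had 53.7, 46.9 and 43.4 CPM in WT and 72.7, 61.0 and 62.9 in KO libraries, 43.2 and 64.3 in Ctrl and 51.1 and 58.8 in KO, and 53.0 and 43.7 in CreCtrl and 67.3 and 71.2 in KO. Its log2 fold change was 0.45 against WT (SE 0.14, adjusted p = 0.0409 by edgeR), 0.03 against Ctrl, where the groups overlapped, and 0.52 against CreCtrl (SE 0.16, adjusted p = 0.0627 by edgeR). The call against WT was lost without WT replicate 2 or 3 or KO replicate 1, with DESeq2, with the replicate number as a block, and with library size alone, where adjusted p was highest at 0.330. Over the 7 and 7 it was 0.41 (SE 0.12, adjusted p = 0.0191 by edgeR).

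Atg7, the E1-like enzyme that activates both ATG12 and LC3 (chromosome 6, 114643097 to 114860614, plus strand), had 11.7, 24.8 and 24.8 CPM in WT and 26.9, 26.3 and 36.7 in KO libraries. It had 25.1 and 29.6 CPM in Ctrl and 30.9 and 33.3 in KO, and 24.2 and 21.2 in CreCtrl and 28.7 and 30.4 in KO. KO was above in each set without overlap, although WT replicate 1 lay far below the other WT libraries. The log2 fold changes of 0.55, 0.23 and 0.38 were not called, and that over the 7 and 7 was 0.47 (SE 0.16, adjusted p = 0.0356 by edgeR).

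Atg10, the E2-like enzyme for ATG12, was the gene with the fewest reads. Its levels were 3.71, 7.35 and 7.02 CPM in WT and 13.5, 15.1 and 6.02 in KO libraries, 7.72 and 7.87 in Ctrl and 8.46 and 8.62 in KO, and 8.55 and 5.89 in CreCtrl and 11.7 and 13.6 in KO. KO replicate 3 of the WT set lay among the WT libraries while the other two were well above them. The log2 fold change over the 7 and 7 was 0.73 (SE 0.26, adjusted p = 0.0362 by edgeR). Atg4a, an X-linked protease that trims LC3 and GABARAP, had 7.15, 14.3 and 8.38 CPM in WT and 13.1, 12.7 and 15.7 in KO libraries, 10.8 and 8.97 in Ctrl and 12.7 and 12.1 in KO, and 14.6 and 16.1 in CreCtrl and 18.8 and 22.9 in KO. WT replicate 2 overlapped the KO libraries, and the groups did not overlap in the other sets. Its log2 fold change over the 7 and 7 was 0.48 (SE 0.17, adjusted p = 0.0338 by edgeR). That of Atg5 was 0.40 (SE 0.15, adjusted p = 0.0459 by edgeR).

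Atg16l1 and Atg4b were not called in any comparison. The log2 fold change of Atg16l1, whose product sets the site of LC3 attachment, was -0.47 against WT, -0.08 against Ctrl and -0.22 against CreCtrl, below 0 in all 3 where its partners Atg12 and Atg5 were above. Atg4b was at -0.08, 0.08 and 0.49.

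The promoters of the machinery genes were searched for CACGTG, the E-box read by MiT/TFE factors such as TFEB that switch on autophagy and lysosome genes. RefSeq promoters (GRCm38.p6, 250 bases before to 50 after a start) were matched for 30 of the 36 genes, with 35 promoters between them. No promoter of Atg12, Atg16l1, Map1lc3a, Rb1cc1, Pik3c3 or Becn1 was searched. The 6 letters, which read the same on both strands, occurred in 5 of the 35 (14.3%), from 5 different genes, beside 7.15% of 32851 promoters of the same length. The longer palindrome TCACGTGA, which contains the E-box, occurred in 1 of the 35 (2.86%), beside 0.974%. The 5 genes are 3 of the conjugation genes called over the 7 and 7 and 2 nucleation genes that were not called. Their E-boxes are shown because they are the letters that set these 5 apart from the other matched promoters, in capitals within 66 bases, 5′ to 3′ on the strand of the gene. The windows are Atg3 chr16:45158705-45158770 (plus), Atg5 chr10:44268295-44268360 (plus), Atg7 chr6:114670934-114670999 (plus), Atg14 chr14:47568400-47568465 (minus) and Rubcn chr16:32868419-32868484 (minus).
Atg3: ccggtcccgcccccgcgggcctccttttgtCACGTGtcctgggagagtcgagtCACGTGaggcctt
Atg5: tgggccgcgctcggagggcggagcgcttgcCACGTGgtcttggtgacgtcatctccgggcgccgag
Atg7: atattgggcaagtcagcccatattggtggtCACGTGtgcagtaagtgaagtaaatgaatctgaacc
Atg14: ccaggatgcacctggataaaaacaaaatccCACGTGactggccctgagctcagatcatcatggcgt
Rubcn: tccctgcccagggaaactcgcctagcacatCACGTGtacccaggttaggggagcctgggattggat

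Atg3 has a pair of E-boxes in this window, starting at -94 and -71 relative to the RefSeq start, and the second is the longer palindrome. The E-box of Atg14 starts at -1, that of Atg5 at -14, that of Rubcn at -88 and that of Atg7 at -132. The windows of Atg7, Atg14 and Rubcn belong to starts 27999, 2215 and 9400 bases inside the gene as GENCODE gives it. A match describes these letters only, and no binding was measured.

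The LC3 and GABARAP proteins are the ubiquitin-like tags that mark the autophagosome. Map1lc3a had 137, 244 and 260.3 CPM in WT and 243, 338 and 272 in KO libraries (chromosome 2, 155276297 to 155278073, plus strand). In the Ctrl set it had 228 and 154 CPM in Ctrl and 272 and 215 in KO, and in the CreCtrl set 189 and 153 in CreCtrl and 262 and 304 in KO. The groups overlapped in the WT and Ctrl sets and not in the CreCtrl set, where the log2 fold change was 0.72 (SE 0.18, adjusted p = 0.0423 by edgeR). That call was lost in 5 of 11 alternatives, among them without KO replicate 1, KO replicate 2 or CreCtrl replicate 2 and with library size alone, with adjusted p up to 0.238. Over the 7 and 7 the value was 0.54 (SE 0.16, adjusted p = 0.0141 by edgeR).

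Map1lc3b encodes LC3B, the form most used as a marker of autophagosomes (chromosome 8, 121590361 to 121598760, plus strand). It had 148.7, 181 and 156 CPM in WT and 126, 121 and 117 in KO libraries, without overlap, a log2 fold change of -0.41 (SE 0.12, adjusted p = 0.0261 by edgeR). The call was lost without WT replicate 2 or any 1 of the 3 KO libraries, with every gene of at least 1 count kept, with the replicate number as a block and with all 14 libraries in 1 fit, with adjusted p up to 0.167. In the Ctrl set it had 85.6 and 78.3 CPM in Ctrl and 91.0 and 74.3 in KO, and in the CreCtrl set 105 and 97.0 in CreCtrl and 113 and 103 in KO, and these groups overlapped. It was the 1 gene of the family called lower in any set, and over the 7 and 7 it was at -0.09 (SE 0.09, adjusted p = 0.503 by edgeR).

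Gabarap (chromosome 11, 69991143 to 69994951, plus strand) had 244, 265 and 239.7 CPM in WT and 382, 380.3 and 347 in KO libraries, 234 and 317 in Ctrl and 291 and 377 in KO, and 253 and 209 in CreCtrl and 306 and 335 in KO. Groups overlapped in the Ctrl set only. Its log2 fold change was 0.57 against WT (SE 0.11, adjusted p = 0.00504 by edgeR), 0.28 against Ctrl, 0.47 against CreCtrl (SE 0.18, adjusted p = 0.1002 by edgeR) and 0.52 over the 7 and 7 (SE 0.11, adjusted p = 0.00331 by edgeR).

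Gabarapl2, which also takes part in Golgi traffic (chromosome 8, 111940703 to 111953612, plus strand), had 31.9, 30.6 and 23.4 CPM in WT and 49.0, 42.7 and 55.8 in KO libraries, 13.965 and 7.80 in Ctrl and 22.5 and 12.6 in KO, and 38.8 and 33.7 in CreCtrl and 47.2 and 53.0 in KO. All 4 libraries of the Ctrl set were below the 10 libraries of the other sets, on this scale as on that over the 14 libraries except for KO replicate 1 of the Ctrl set (10.1 RPKM), which was above WT replicate 3 (9.14 RPKM). Against WT the log2 fold change was 0.78 (SE 0.19, adjusted p = 0.0120 by edgeR), against Ctrl 0.69 (SE 0.46, adjusted p = 0.725 by edgeR) and against CreCtrl 0.47 (SE 0.16, adjusted p = 0.0770 by edgeR). It was called over the 7 and 7 (0.72, SE 0.16, adjusted p = 0.00396 by edgeR) under all 20 alternatives, as was Gabarap.

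Gabarapl1 had 136, 136 and 114 CPM in WT and 154, 121 and 127 in KO libraries, 121 and 153 in Ctrl and 138 and 184 in KO, and 117 and 107 in CreCtrl and 124 and 158 in KO. It was not called in any comparison, with a log2 fold change of 0.24 over the 7 and 7 (SE 0.11, adjusted p = 0.0828 by edgeR), and 570 bases of its exons lie opposite another gene.

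Summed over the 5 genes, the family was at 381 ± 50.1 RPKM (SD, n = 3) in WT and 554 ± 45.7 (SD, n = 3) in KO mice of that set, 410.1 ± 0.504 (SD, n = 2) in Ctrl and 505 ± 10.1 (SD, n = 2) in KO, and 354 ± 45.9 (SD, n = 2) in CreCtrl and 529 ± 37.7 (SD, n = 2) in KO. The 7 KO libraries (498 to 606 RPKM) were all above the 7 controls (321 to 421 RPKM). Scaled by library size alone the sums were 382 to 497 RPKM in WT and 479.7 to 529.9 in KO, which overlap, 385 to 437 in Ctrl and 458 to 474 in KO, and 358 to 405 in CreCtrl and 465 to 494 in KO, which do not. The share of the sum held by Map1lc3b does not depend on the scaling of libraries. It was 5.67%, 5.28% and 4.74% in WT and 3.17%, 2.75% and 3.00% in KO libraries, 2.87% and 2.66% in Ctrl and 2.53% and 2.00% in KO, and 3.61% and 3.99% in CreCtrl and 3.09% and 2.48% in KO. The KO share was below the control share without overlap in each of the 3 sets. Map1lc3b itself had a log2 fold change of 0.01 against Ctrl and 0.10 against CreCtrl, so in those sets the lower share goes with the higher sum of the family. The share is per exon length, which at 7517 bases is the longest of the family for Map1lc3b, so it sets groups side by side rather than counting molecules.

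**Figure D5:**
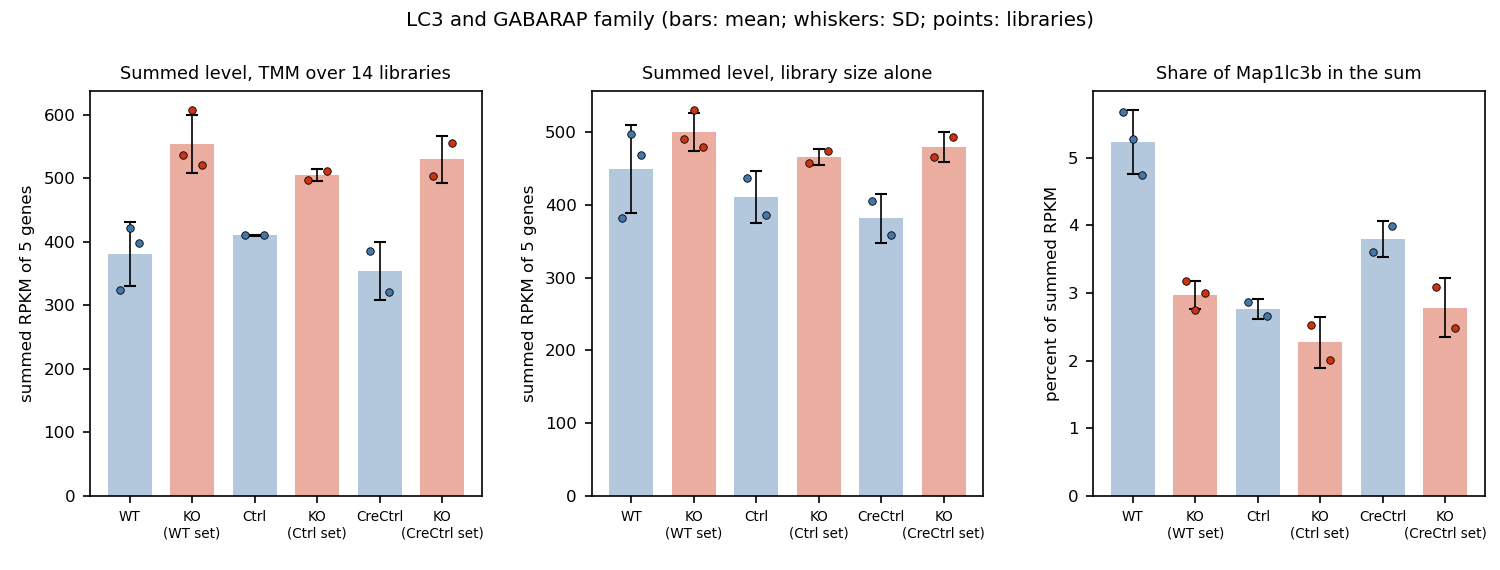
Summed RPKM of the 5 LC3 and GABARAP genes scaled over 14 libraries (left) and by library size alone (middle), and the percent of the sum held by Map1lc3b (right), in the 6 groups, with bars for the mean, whiskers for the SD and points for libraries. The left panel separates the 7 KO from the 7 control libraries, the middle panel does not in the WT set, and the right panel shows a lower share in KO than in the controls of each set.

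Of the cargo receptor and mitophagy genes, all but Sqstm1 were called higher over the 7 and 7. Scaled by library size alone, Optn, Nbr1 and Pink1 were not called there, with adjusted p of 0.0623, 0.0510 and 0.155 by edgeR. Optn encodes optineurin, which brings ubiquitin-marked mitochondria and bacteria to LC3 (chromosome 2, 5020642 to 5064051, minus strand). It had 44.2, 66.1 and 85.9 CPM in WT and 131, 161 and 161 in KO libraries of the WT set. In the Ctrl set it had 118 and 123 CPM in Ctrl and 151 and 143 in KO, and in the CreCtrl set 123 and 122 in CreCtrl and 139 and 131 in KO. The groups did not overlap in any set, and WT replicate 1 was the lowest library of all. KO exceeded WT 2.31-fold (log2 fold change 1.21, SE 0.23, adjusted p = 0.00361 by edgeR), Ctrl 1.22-fold (0.29, SE 0.21, adjusted p = 0.761 by edgeR) and CreCtrl 1.101-fold (0.14, SE 0.14, adjusted p = 0.512 by edgeR).

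On the common scale Optn was at 10.96 to 20.8 RPKM in WT, against 32.3 to 34.3 in the 4 Ctrl and CreCtrl libraries and 34.98 to 44.3 in the 7 KO libraries. The KO effect was 1.06 larger in the WT set than in the Ctrl set (SE 0.29, adjusted p = 0.0548 by edgeR's interaction contrast) and 1.18 larger than in the CreCtrl set (SE 0.29, adjusted p = 0.0658 by edgeR), and neither difference was called. DESeq2 called both, with adjusted p of 0.0454 and 0.0132. For the contrast of the WT and CreCtrl sets edgeR called 0 of the 36 genes (beside 1.49% of all genes), 4 were under an unadjusted p of 0.05 (Ulk2, Rb1cc1, Wipi1 and Optn, beside 14.9%) and DESeq2 called 1, Optn (beside 4.98%). For that of the Ctrl and CreCtrl sets edgeR called 0 (beside 0%), 1 was under an unadjusted p of 0.05 (Sqstm1, beside 8.75%) and DESeq2 called 0 (beside 0.651%).

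Nbr1, a receptor for ubiquitin-marked protein and peroxisomes (chromosome 11, 101552149 to 101581951, plus strand), had 129, 126 and 124 CPM in WT and 176, 164 and 176 in KO libraries, 157 and 171 in Ctrl and 202 and 196 in KO, and 168 and 153 in CreCtrl and 192 and 226 in KO. No control library reached the KO libraries of its set. The difference on the log2 scale was 0.45 from WT (SE 0.10, adjusted p = 0.0107 by edgeR), 0.28 from Ctrl (SE 0.21, adjusted p = 0.779 by edgeR), 0.38 from CreCtrl (SE 0.17, adjusted p = 0.140 by edgeR) and 0.44 over the 7 and 7 (SE 0.08, adjusted p = 0.00132 by edgeR).

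Pink1 (chromosome 4, 138313409 to 138326307, minus strand) had 146, 187 and 213 CPM in WT and 226, 266 and 234 in KO libraries, 219.7 and 223 in Ctrl and 271 and 255 in KO, and 219 and 169 in CreCtrl and 261 and 271 in KO. KO was above without overlap in each set. It was not called in a single set (log2 fold changes 0.41, 0.25 and 0.46) and was called over the 7 and 7 (0.44, SE 0.11, adjusted p = 0.00554 by edgeR). Sqstm1 was at 470.0 to 536 CPM in WT and 438 to 530.4 in KO, 411 to 556 in Ctrl and 382 to 442 in KO, and 329 to 397 in CreCtrl and 437 to 478 in KO. Its log2 fold changes of -0.05, -0.23 and 0.33 differed in sign and were not called. Stx17, the SNARE of autophagosome-lysosome fusion, had log2 fold changes of 0.03, -0.18 and 0.24, also not called.

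Of 67 further genes of the pathway, chosen by role, 18 were higher (26.9%) and 8 lower (11.9%) in the WT set, beside 16.1% and 19.0% of all genes tested. Of the 66 tested in the Ctrl set, 0 were higher and 0 lower. In the CreCtrl set 4 of 66 were higher (6.06%, beside 3.60%) and 1 lower (1.52%, beside 12.2%), and over the 7 and 7, 24 were higher (35.8%, beside 20.1%) and 5 lower (7.46%, beside 18.6%). Their median log2 fold change was 0.22, 0.10, 0.25 and 0.23 in that order, where that of all genes was -0.08, 0.01, -0.02 and -0.01. The transcription factors of the autophagy-lysosome programme were lower in the WT set in 6 of 8 cases (beside 19.0% of all genes), with a median log2 fold change of -0.55 (-0.08 for all genes), while edgeR called 0 of 8 in the Ctrl set and 0 of 7 tested in the CreCtrl set. The 6 were Foxo1 (-1.70, adjusted p = 0.000128 by edgeR), Foxo3 (-0.49), Atf4 (-0.43), Tfe3 (-0.76), Tfeb (-0.62, adjusted p = 0.0400 by edgeR) and Tfec (-4.93). Over the 7 and 7, Foxo1 (-0.88), Tfe3 (-0.43) and Tfec (-2.92) were lower (3 of 8, beside 18.6%) and Mitf, which is also on the RPE marker list, was higher (0.23; 1 of 8, beside 20.1%).

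Among other cargo receptors 6 of 15 were higher in the WT set (beside 16.1%) and 0 lower (beside 19.0%), with a median of 0.40 where that of all genes was -0.08. They included Calcoco1 (1.24) and the endoplasmic reticulum receptor gene Tex264 (0.55), Tax1bp1 (0.71), and the mitophagy genes Bnip3l (0.52) and Fundc1 (0.59). Over the 7 and 7, 7 were higher (beside 20.1%) and 1 lower (beside 18.6%), Retreg1 (-0.59), the receptor for endoplasmic reticulum sheets. Of 18 upstream kinase and nutrient-sensing genes, 7 were higher in the WT set (beside 16.1%), among them Mtor (1.40), Rragd (1.89), Prkaa2, the catalytic subunit of AMPK (1.31), and Sesn2 (1.24), and 1 lower (beside 19.0%), Sesn1 (-0.77). Mtor (0.79), Prkaa2 (0.77) and Rragd (1.02) were also higher in the CreCtrl set (3 of 18, beside 3.60%). Of 14 genes of fusion with the lysosome, Rab7 (0.69), Vamp8 (1.26) and Vps41 (0.76) were higher (3 of 14, beside 16.1%) and Lamp1 lower (-0.91; 1 of 14, beside 19.0%) in the WT set, and 7 were higher (beside 20.1%) and 0 lower (beside 18.6%) over the 7 and 7. Of 12 core genes beyond the 36, Ei24 (0.53) and Tecpr1 (0.43) were higher in the WT set (2 of 12, beside 16.1%), and Atg16l2 was lower in the CreCtrl set (-1.20, adjusted p = 0.0397 by edgeR; 1 of 12, beside 12.2%).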

How the data were processed

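RNA was sequenced from the RPE of 14 mice, with 1 library a mouse, and the 3 sets were read from titles and sample codes. The authors deposited whole read counts per Ensembl gene without normalization. Per the submitters' processing notes, bcl2fastq 2.19, STAR 2.5.2, HTSeq 0.11.2 and Cufflinks 2.1.1 were used with GRCm38. The strand setting and annotation release of the counting are not given in the sources used here, so opposite and overlapping genes cannot be told apart with certainty. Names, positions and exon lengths came from GENCODE M21, which holds 42329 of 42687 genes.

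Counts were compared within each set by edgeR 4.0.16 (R 4.3.3; TMM, filterByExpr, quasi-likelihood test, Benjamini-Hochberg over all genes, adjusted p under 0.05, no fold threshold). A fit of 7 KO and 7 control libraries had the set as a covariate, and a fit of 6 groups gave the contrasts of KO effects between sets. Alternatives were RLE or library size alone, other count filters (1 count or 10 counts in every library), DESeq2 1.42.0, the replicate number as a block, all libraries in 1 fit, and each library left out. The sign and size of the fitted fold changes were checked on simulated counts with the same spread for all genes. Those counts lack the marker differences of the real libraries, so they do not give the rate of false calls here.

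CPM used the TMM factors of the set, and RPKM and marker sums those over 14 libraries. The 17 genes with values in every library were those called in the Ctrl or CreCtrl set, up to 12 called in the WT set and up to 12 over the 7 and 7 by size of change, and the LC3 and GABARAP family. The genes, role groups, marker lists and tests were chosen with earlier results of these data known, and 1 further marker list is not reported here. Replicates are separate mice. Exact permutation of 3 against 3 libraries cannot give a p below 0.1, so single genes were tested only in the fits across all genes.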

Additional observations from a re-analysis of the deposited data

Results flagged for a closer look

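The KO effect on Wipi1 was larger in the WT set than in the Ctrl set, by 0.72 on the log2 scale (standard error 0.19, adjusted p = 0.0490 by edgeR's interaction contrast). It drew attention because the test of the difference itself was past the threshold. Only 1 of the 36 genes was called for this difference (2.78%), beside 5.15% of 17662 genes, so the share among the 36 was below that of all genes. The Wipi1 difference also depended on the fit. It was called in 1 further alternative, without Ctrl replicate 1 (0.91, adjusted p = 0.0157 by edgeR), and adjusted p reached 0.384 over the others. KO libraries were higher than their controls in both sets, though the effect in the Ctrl set (0.41, standard error 0.23) was not called by edgeR. The WT libraries also had the highest fibroblast and the lowest RPE marker levels of the controls, whose part in this difference was not tested, and control genotype and set cannot be told apart.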

How the results depend on the processing

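Scaling by library size alone gave 3 higher and 8 lower against WT (beside 1716 and 3942 of 15428 genes), with a median log2 fold change of -0.19. The median against Ctrl was -0.071. Against CreCtrl 1 was higher (beside 219 of 15963 genes), with a median of 0.11. Over the 7 and 7 that scaling gave 4 higher and 9 lower (beside 1531 and 4598 of 16181 genes) and a median of -0.061. Pik3r4 (-0.019) and Wipi2 (-0.019) turned below 0 over the 7 and 7 there, and these were the 2 called values that changed sign under any alternative. RLE gave 9 higher and 2 lower over the 7 and 7, beside 2811 and 3234 of 16181 genes. With every gene of at least 1 count kept, 2 were lower against WT (median 0.13), beside 2606 of 22729 genes. Under that filter 8 were higher against CreCtrl, beside 1862 of 24610, and 0 lower over the 7 and 7, beside 3319 of 27272. With at least 10 counts in every library, 2 were lower over the 7 and 7 (median 0.093), beside 2554 of 11824. DESeq2 gave 5 higher against CreCtrl, beside 1655 of 15963, and 2 lower over the 7 and 7, beside 3792 of 16181. With all 14 libraries in 1 fit, 12 were higher and 2 lower against WT (median 0.19), beside 3603 and 2974 of 17662. In that fit 1 was higher against CreCtrl, beside 198. The causes were not tested.

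With 1 library left out, the genes lower against WT numbered 1 to 4 (median 0.036 to 0.17), beside 2250 to 2565 over all genes. The median was 0.028 to 0.16 against Ctrl and 0.25 to 0.44 against CreCtrl. Over the 7 and 7, 9 to 15 were higher and 0 to 2 lower, beside 2815 to 3510 and 2676 to 3405 over all genes. An arm left with 1 library was assumed to vary like the others. The KO effect differed between the WT and Ctrl sets for 0 autophagy genes with RLE, library size alone or at least 10 counts. Over all genes those fits called it higher in the WT set for 439, 353 and 567 genes. They called it lower for 157, 195 and 300, of 17662, 17662 and 11824 tested. With at least 1 count it differed for 2 autophagy genes, beside 1562 higher and 700 lower of 27272. With DESeq2 it also differed for 2, beside 1015 and 578 of 17662. Between the WT and CreCtrl sets it differed for 1 autophagy gene with at least 1 count, at least 10 counts or DESeq2. Over all genes those fits called it higher in the WT set for 671, 324 and 551 and lower for 431, 163 and 328. Genes tested were 27272, 11824 and 17662. Counts with a library left out are not given for these contrasts, as some of those fits leave 1 library in a group. Of the values of called genes under the alternatives, 28 of 143 lost the call against WT, 7 of 22 against CreCtrl and 99 of 320 over the 7 and 7.

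The labels do not say that a replicate number is shared between groups, and the deviations of same-numbered libraries had r across genes, which are not independent, of -0.01, 0.09 and 0.22 for the 3 pairs with WT, -0.02 with Ctrl and 0.04 with CreCtrl. Pairs 2 and 3 with WT were above every pair of different numbers (up to 0.08) and pair 1 was not, so the numbers were not taken to pair the mice. With the replicate number as a block, 6 genes were higher and 3 lower against WT, beside 2283 and 2574 of 15428. In such fits 4 were higher against CreCtrl (beside 1108 of 15963), and against Ctrl 0 were called (beside 0 higher and 113 lower of 15287). Over the 7 and 7, 11 were higher and 0 lower (beside 2699 and 2619 of 16181). Depth limited Atg10 most, with as few as 42 counts in a library.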
